A study of Mus musculus with 6 samples.

Results

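DNA replication and G1/S genes are described here as 37 mouse genes named by symbol, each found as 1 row of a table of 55414 Ensembl gene identifiers. The genes were divided by role into origin licensing (11 genes), the replication fork (16), nucleotide supply (4) and G1/S control (6). Expression was measured by RNA sequencing in 6 libraries from TM4, an established mouse testis line labelled as Sertoli cells, the somatic cells that nurse developing germ cells. There were 3 libraries labelled VC and 3 labelled control. The labels disagree on the agent given to the VC cells, since the series title names vitamin C while a sample field and the design text name valine. No dose or exposure time is stated in the labels. They also do not say that the libraries of a group came from separate cultures, so the p-values reflect the spread among these 6 libraries, some or all of which may be technical.

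Replication is prepared in G1, when the origin recognition complex, Cdc6 and Cdt1 load the ring-shaped MCM2-7 helicase onto DNA, and geminin prevents a second loading within the same cycle. In S phase Cdc45 and GINS join MCM2-7 to form the active helicase, and primase, the DNA polymerases, the sliding clamp PCNA and its loader RFC copy the strands with nucleotides supplied by ribonucleotide reductase and the thymidylate enzymes. Cyclin D with Cdk4 and cyclin E with Cdk2 release E2F factors from the retinoblastoma protein, and E2F factors drive many of these genes, which makes their RNA a common readout of cells in cycle. TM4 cells divide in culture, whereas Sertoli cells of the adult testis do not normally divide.

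The deposited values behave as TPM multiplied by 1 factor per library and are called levels below. The gene length that fitted them was that of all annotated exons together, for example 11012 bases for Rrm1 and 2771 for Rrm2. Comparisons of level between genes depend on that length. Whether it matches the transcripts made in these cells was not tested. Recovered reads came to between 20408422 and 22316855 per library. Control replicate 3 stood apart from the other libraries, with an estimated library weight of 0.347 where the others had 1.08 to 1.40. Of 6 defining Sertoli markers, Wt1 and Fshr were listed at 0 in every library and Cldn11 was at 0 in 5 of them, while Gata4 lay between 21.4 and 22.3 in VC and between 18.6 and 19.8 in control. Sox9 was between 3.23 and 3.96 in VC and between 2.83 and 3.28 in control, and Amh was between 0.36 and 1.16 in VC and between 0.86 and 1.05 in control. The whole list of 14 Sertoli markers, of which 3 were at 0 in all libraries, 8 passed the filter and 0 had an adjusted p under 0.05, summed to between 1511 and 1564 in VC and between 1569 and 1637 in control. Chosen after their values were seen, Vim, which many other cell types express, made up most of that sum (1165 to 1228 in VC and 1242 to 1330 in control), and the inhibin subunit gene Inhbb was at 173.1 to 179.5 in VC and at 151.1 to 158.3 in control (limma adjusted p = 0.0747). Germ cell markers summed to at most 0.103 in VC and 0.204 in control, and 3 of 5 were listed at 0 in all libraries. Macrophage markers summed to between 60.5 and 70.6 in VC and between 55.4 and 65.3 in control, and the defining Adgre1 was listed at 0; nearly all of the sum was Cd14, also singled out after its values were seen, at 55.8 to 67.0 in VC and at 49.7 to 61.8 in control. Leydig markers summed to at most 3.53 in VC and 3.31 in control and endothelial markers to at most 2.25 in VC and 1.86 in control. The 4 peritubular myoid markers summed to between 389.9 and 398.3 in VC and between 605 and 663.3 in control. Nearly all of that sum was Acta2, the only marker listed for any cell type with an adjusted p under 0.05. Its log2 fold change of VC over control was -0.68 (limma adjusted p = 0.0111). The part of these markers in the results below was not tested.

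None of the 37 genes differed between VC and control past the threshold. All 37 passed the expression filter of a level of 1 or more in at least 3 libraries, and each had at least 334 reads in every library. In limma's fit of log2(level + 1) over 13972 genes, 0 of the 37 had an adjusted p under 0.05, where 0.687% of all genes tested (96) did. That number was 82 without control replicate 3, and 0 or 1 when any other library was left out. At an unadjusted p under 0.05 there were 3, which were Mcm7, Lig1 and Ccne1, all with a lower mean in VC; of all genes tested 17.2% had one, 9.05% higher and 8.2% lower. In 8 of the 37 the 3 VC values lay wholly on one side of the 3 control values, 2 higher (Pole and Cdk2) and 6 lower (Mcm7, Orc6, Rfc5, Lig1, Rrm1 and E2f1). That is 21.6% of the genes, against 25.6% of all genes tested, of which 13.9% were higher and 11.6% lower. This count was made on the deposited scale, where library totals ran from 966031 to 983802 in VC and from 1007535 to 1058206 in control. It was not repeated with libraries scaled to equal totals. With equal totals the log2 fold changes were 0.22 for Pole and 0.17 for Cdk2. They were -0.047 for Mcm7, -0.0045 for Orc6, -0.050 for Rfc5, -0.012 for Lig1, 0.029 for Rrm1 and 0.014 for E2f1.

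The differences were small as well as short of the threshold. The log2 fold changes of VC over control ran from -0.15 for Ccne1, which encodes a cyclin E, to 0.15 for Pole, with a median of -0.013; the median of all genes tested was 0.012 and that of the 6162 genes in the same range of mean level was -0.004. The median size of a difference was 0.039 log2 units in the 37 genes, 0.073 in genes of that range of level and 0.094 in all genes. The median SE had the same order, at 0.045, 0.053 and 0.076. How far the sizes follow the SE was not tested. limma's 95% intervals lay between -0.3 and 0.3 for 36 of the 37 genes, and between -0.2 and 0.2 for 27. Pole was the exception to the wider bounds, with an interval from -0.04 to 0.34. The summed level of the 37 genes was 3438, 3441 and 3414 in the VC libraries, against 3418, 3495 and 3514 in the control libraries, a mean difference of -1.3%. The 2 groups overlapped in that sum. In bulk RNA a change in the share of cycling cells and a change in transcripts per cycling cell cannot be told apart.

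**Figure D1:**
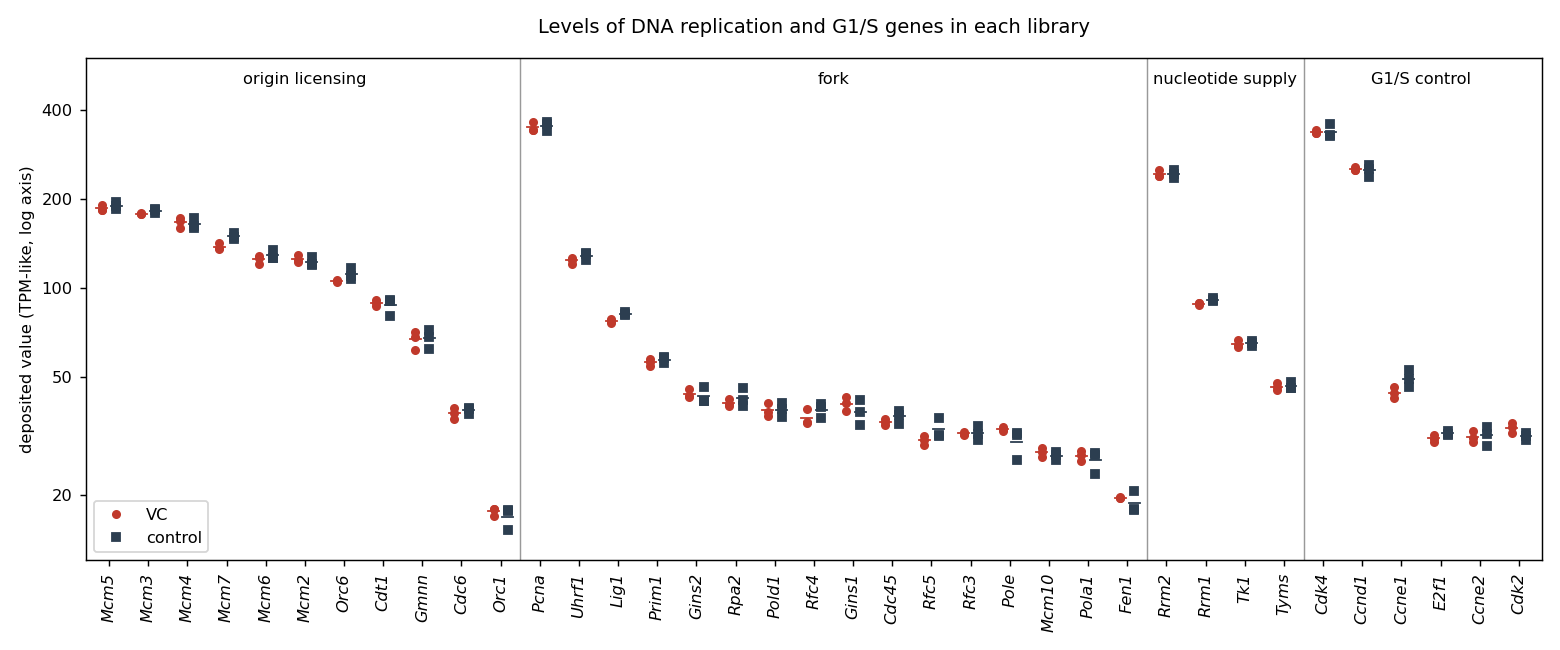
Level of each of the 37 genes (log axis, TPM-like) in the 3 VC libraries (circles) and the 3 control libraries (squares), by class, with short lines at the group means. Levels run from 15.1 for Orc1 to 366.5 for Pcna, and the VC and control points of most genes lie at the same height.

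**Figure D2:**
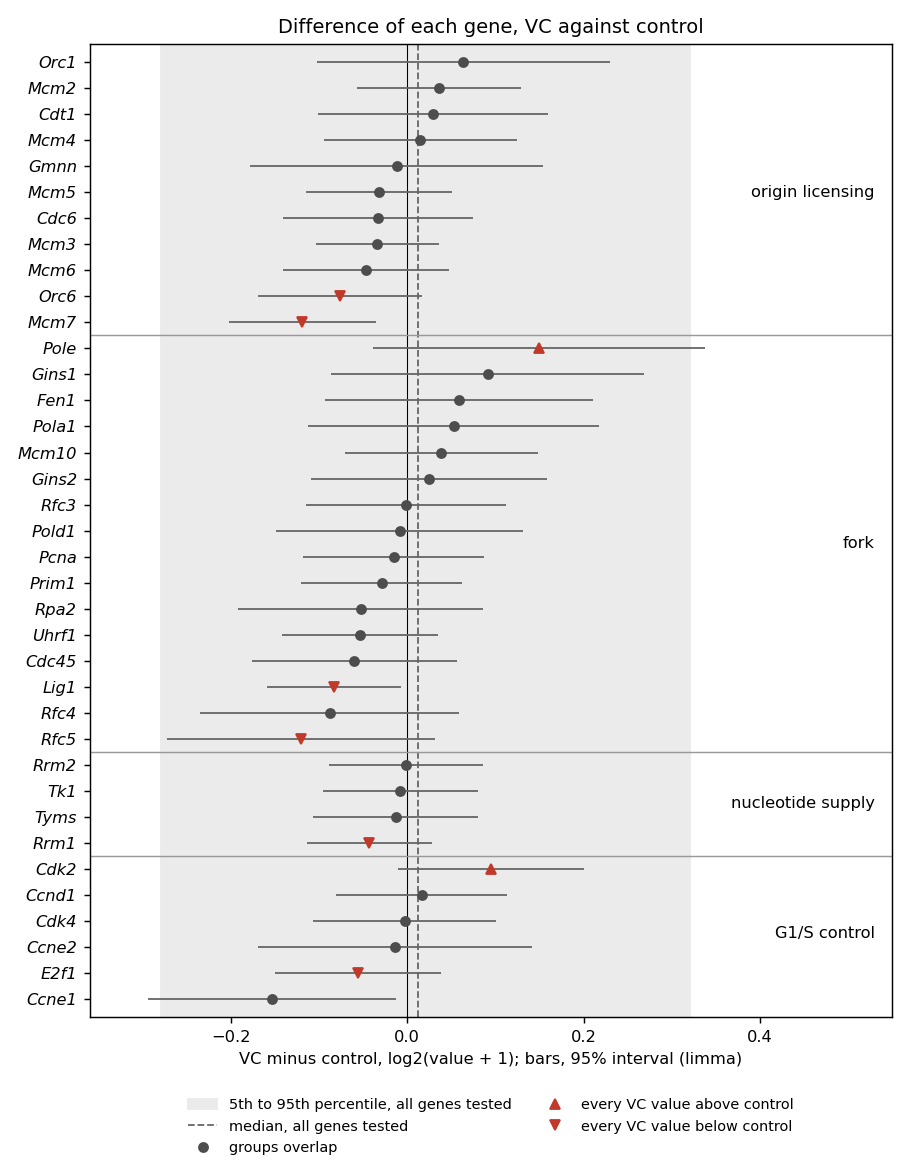
Difference of each gene in log2(level + 1), VC minus control, with limma's 95% interval; the grey band is the 5th to 95th percentile and the dashed line the median of all 13972 genes tested. Intervals of 34 of the 37 genes include 0, and triangles mark the 8 genes whose groups do not overlap.

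Among the origin licensing genes, the 6 subunits of the MCM2-7 ring stood at levels of like size in both groups. Their levels lay between 121.1 and 191.0 in VC and between 119.5 and 196.0 in control, and the highest subunit mean was 1.49 times the lowest in VC and 1.56 times in control. Mcm5 and Mcm3 had the highest levels and Mcm2 and Mcm6 the lowest, an order that depends on the exon length used. Mcm2 had 6490 to 7091 reads per library, the most of the 6 subunits, and Mcm5 had 5739 to 6310. The exon length was 6956 bases for Mcm2 and between 3589 and 4666 for the other subunits. Mcm7 had the smallest adjusted p of the 37 genes. It was at 141.9, 136.8 and 135.5 in the VC libraries and at 149.1, 146.9 and 154.1 in the control libraries, so every VC value lay below every control value. The fold change was -0.12 log2 units (SE 0.035, 95% interval -0.20 to -0.035), or a difference of -7.96% between the means, with an adjusted p of 0.168 in limma. The other 5 subunits had fold changes from -0.046 for Mcm6 to 0.036 for Mcm2, and their groups overlapped; with 1 library left out Mcm6 ran from -0.064 to -0.019 and Mcm2 from 0.015 to 0.064. Mcm2 was at 124.2, 129.3 and 123.1 in VC and at 120.5, 127.4 and 119.5 in control. The Mcm7 locus also holds the microRNA genes Mir93 and Mir25, and 12.6% of its exon bases overlap other genes.

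The loading factors and their inhibitor overlapped between the groups. Cdt1, which brings the MCM ring to the origin, was at 87.2, 91.6 and 89.2 in VC and at 80.7, 91.5 and 90.8 in control. Gmnn, which encodes geminin, the inhibitor of Cdt1, was at 68.4, 62.0 and 71.0 in VC and at 72.1, 62.5 and 68.6 in control. The ratio of Cdt1 to Gmnn levels was 1.34 ± 0.12 in VC and 1.30 ± 0.17 in control (SD, n = 3 each), a difference within the spread of either group. Cdc6, the ATPase that works with Cdt1, averaged 37.7 ± 1.64 in VC and 38.6 ± 0.90 in control.

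The 2 subunits of the origin recognition complex in the set lay far apart in level. Orc1, its largest subunit, had the lowest mean level of the 37 genes. It was at 16.92, 17.87 and 17.96 in VC and at 17.7, 15.1 and 17.6 in control, with groups that overlapped. Orc6 was at 107.0, 104.8 and 105.7 in VC and at 107.8, 110.4 and 116.9 in control, with no overlap. Its fold change was -0.076 (SE 0.039, limma adjusted p = 0.370), and -0.043 without control replicate 3, the highest of the 6 libraries for this gene. The median fold change of the 11 licensing genes was -0.032, with 7 below 0 and 4 above.

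Promoter sequences from RefSeq (build GRCm38.p6) were matched by symbol to show the E2F-type element that this gene set is known for; the authors aligned to GRCm39, so these coordinates belong to the RefSeq table only. The letters searched were TTTCCCGC, TTTCGCGC, TTTGCCGC and TTTGGCGC on both strands in the 250 bases before the annotated start, where forms that overlap each other were each accepted. Of 30 genes of the set with a promoter in the table, 9 held at least 1 match, or 30%, against 4.21% of the 9000 tested genes in the table. By class, a match was found in 5 of 9 licensing genes, 3 of 13 fork genes, 0 of 4 nucleotide supply genes and 1 of 4 G1/S genes. The 4 stretches of 60 bases below were chosen because Mcm7 and Cdk2, whose VC values lay below and above their control values without overlap, hold the same 8 letters, and because Mcm5 and Mcm6 hold a palindrome-like double match. Mcm6 had 3 matches in all, and the one nearest to the start, 47 bases before it, lies outside the stretch shown. Capitals mark the matches in each stretch, 5′ to 3′ along the gene's own strand.
Mcm7, chr5:138172015-138172074, minus strand: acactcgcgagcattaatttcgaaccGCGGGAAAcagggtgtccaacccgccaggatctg
Cdk2, chr10:128705158-128705217, minus strand: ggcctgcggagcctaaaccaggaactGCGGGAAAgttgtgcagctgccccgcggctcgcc
Mcm5, chr8:75109332-75109391, plus strand: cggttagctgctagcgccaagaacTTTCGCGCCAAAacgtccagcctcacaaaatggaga
Mcm6, chr1:128359766-128359825, minus strand: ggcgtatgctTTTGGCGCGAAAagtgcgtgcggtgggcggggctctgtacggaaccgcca
The median log2 fold change was -0.032 in the 9 genes with a match and -0.029 in the 21 without. A match is a run of letters in this window and says nothing of binding in these cells.

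At the replication fork, Pcna, the sliding clamp, had the highest level of all 37 genes. It was at 366.5, 343.2 and 344.7 in VC and at 340.039, 360.2 and 365.4 in control, with a fold change of -0.015 (95% interval -0.12 to 0.087). The processed copy Pcna-ps2 was itself listed at 103.3 to 110.2 in VC and at 105.8 to 118.6 in control, so the split of reads between the gene and its copy is uncertain. The clamp loader subunits Rfc3, Rfc4 and Rfc5 had levels from 29.5 to 39.1 in VC and from 30.8 to 40.4 in control. Rfc5 was at 29.5, 31.6 and 30.6 in VC and at 31.9, 31.7 and 36.5 in control, and its fold change of -0.12 (SE 0.064, limma adjusted p = 0.386) was -0.055 without control replicate 3.

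The helicase partners Cdc45, Gins1 and Gins2 and the helicase-associated factor Mcm10 did not separate the groups. Cdc45 was at 34.6, 36.05 and 35.2 in VC and at 34.7, 37.3 and 38.5 in control. Gins1 was at 40.8, 42.8 and 38.5 in VC and at 34.6, 38.2 and 41.8 in control, and Mcm10 averaged 27.9 ± 1.00 in VC and 27.1 ± 0.80 in control. Gins2 averaged 43.9 ± 1.51 in VC and 43.2 ± 2.89 in control, but 67.3% of its exon bases overlap Gse1 on the opposite strand, and reads of the 2 genes cannot be told apart without strand. The same holds for Fen1, the flap endonuclease that trims Okazaki fragments, where 84.2% of exon bases overlap genes on the opposite strand; it averaged 19.6 ± 0.035 in VC and 18.8 ± 1.58 in control.

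The 3 replicative polymerases gave fold changes of both signs. Pole, the catalytic subunit of the leading-strand polymerase, had the largest positive difference of the 37 genes, at 32.9, 33.8 and 33.5 in VC against 32.3, 31.9 and 26.3 in control. Every VC value lay above every control value, but control replicate 3 stood far below the other controls. The fold change was 0.15 (SE 0.079, limma adjusted p = 0.386) with all libraries and 0.056 without control replicate 3. Pola1, the catalytic subunit of the priming polymerase, was at 26.023, 27.3 and 28.1 in VC and at 27.3, 27.6 and 23.6 in control, again lowest in control replicate 3. Pold1, of the lagging-strand polymerase, averaged 38.6 ± 2.11 in VC and 38.9 ± 2.23 in control, and the primase subunit Prim1 averaged 56.2 ± 1.47 in VC and 57.4 ± 1.45 in control.

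Lig1, the ligase that seals Okazaki fragments, separated the groups by a small margin. It was at 76.1, 77.3 and 78.4 in VC and at 81.6, 81.1 and 83.2 in control, without overlap, a difference of -5.67% between the means. The fold change was -0.083 (SE 0.032, 95% interval -0.16 to -0.008, limma adjusted p = 0.256), and it ran from -0.094 to -0.073 when any 1 library was left out. When library totals were made equal it was -0.012, and the median of all genes was then 0.078. Rpa2, a subunit of the protein that coats single-stranded DNA, averaged 41.0 ± 1.24 in VC and 42.6 ± 3.09 in control. Uhrf1, which brings the maintenance methyltransferase to newly copied DNA, averaged 124.3 ± 2.83 in VC and 129.1 ± 4.07 in control. The median of the 16 fork genes was -0.012, with 10 below 0 and 6 above. It was 0.0034 without control replicate 3 and -0.040 without control replicate 1, so its sign rests on single libraries.

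Part of the spread of the fork genes lay with a single library. Control replicate 3 was the highest of the 6 libraries in 16 of the 37 genes and the lowest in 7, and it was the farthest from the gene's median in 17. For fork genes the class median of control replicate 3 stood 0.070 log2 units above the mean of the 6 libraries, while that of control replicate 1 stood 0.053 below. Its deviations fell with exon length across the 37 genes, with a Spearman rho of -0.34, which was -0.35 across 13772 genes; these points share 1 library and are given without a test. The within-group coefficient of variation had a median of 2.64% in VC and 4.35% in control, and 29 of the 37 genes had the smaller SD in VC. Whether this library or length accounts for any difference named here was not tested beyond the values given without it.

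**Figure D3:**
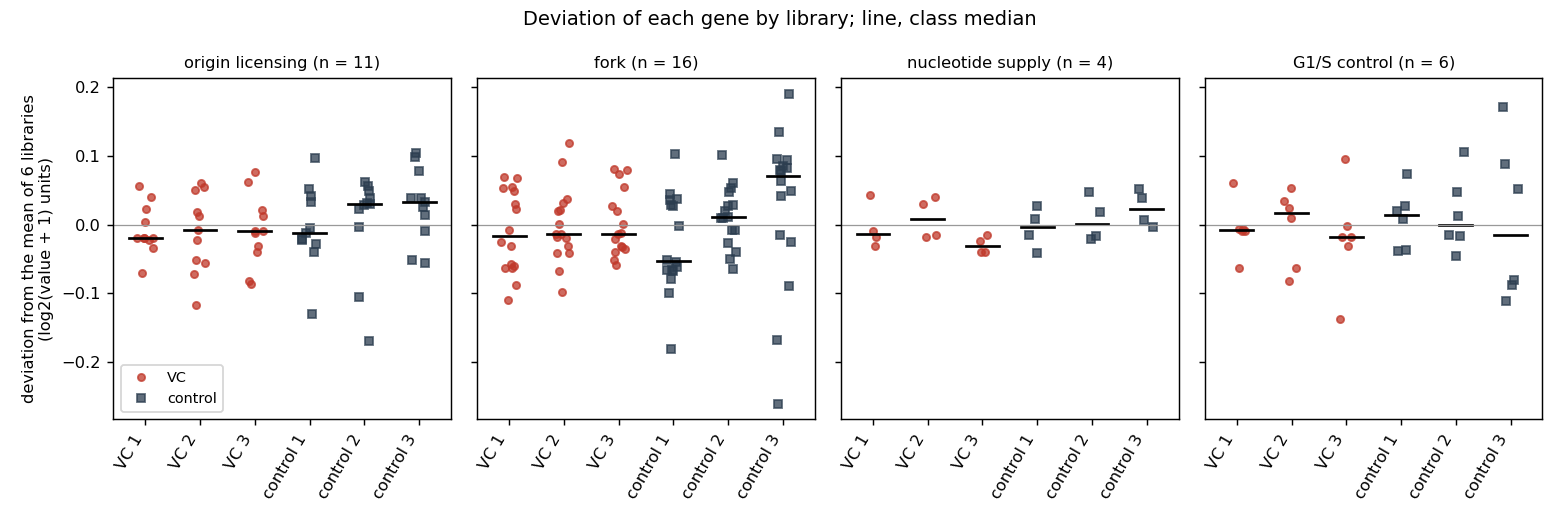
Deviation of each gene from its mean over the 6 libraries (log2(level + 1) units) in each VC library (circles) and control library (squares), by class; the thick line is the class median. The fork genes of control replicate 3 lie mostly above 0, with Pole and Pola1 far below, while VC medians stay between -0.032 and 0.017.

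The 4 nucleotide supply genes of the set had the smallest median size of difference of the 4 classes, 0.010 log2 units, against 0.034 to 0.053 in the others. This did not extend to 9 other nucleotide supply genes of the pathway, where it was 0.059. Other pathway genes of the remaining classes had 0.051 to 0.066. Groups did not overlap in 5 of those 9, or 55.6%, against 25.6% of all genes tested. Rrm2, the small subunit of ribonucleotide reductase, whose level is known to follow S phase, was at 240.6, 250.5 and 239.6 in VC and at 236.8, 251.8 and 243.0 in control. Its fold change was -0.002 with a 95% interval of -0.089 to 0.086, so the data leave room for a difference of either sign within those bounds. Rrm1, the large subunit, was at 88.1, 88.9 and 89.0 in VC and at 90.5, 91.1 and 92.5 in control, without overlap, with a fold change of -0.043 (SE 0.030, limma adjusted p = 0.504). The ratio of Rrm2 to Rrm1 levels was 2.75 ± 0.066 in VC and 2.67 ± 0.082 in control (SD, n = 3 each). Its size depends on the exon lengths used, 2771 bases for Rrm2 and 11012 for Rrm1. In reads Rrm1 was the higher, at 7541 to 8454 per library against 5081 to 5591 for Rrm2.

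The thymidine enzymes also overlapped between the groups. Tyms, which makes thymidylate from deoxyuridylate, was at 46.3, 47.6 and 45.3 in VC and at 46.1, 46.1 and 48.3 in control. Tk1, the cytosolic thymidine kinase of the salvage route, was at 67.0, 64.3 and 63.2 in VC and at 66.2, 64.0 and 65.3 in control. The groups of both genes overlapped, and their 95% intervals ran from -0.11 to 0.081 for Tyms and from -0.096 to 0.080 for Tk1. All 4 fold changes of the class lay below 0, with a median of -0.010, and all 4 lay above 0 once library totals were made equal, a scale on which the class median was 0.061 and that of all genes 0.078.

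In G1/S control, the cyclin D arm was abundant and close between the groups. Ccnd1, cyclin D1, was at 250.9, 258.0 and 251.6 in VC and at 253.5, 260.5 and 238.2 in control, and Cdk4, its kinase partner, was at 336.6, 344.3 and 334.5 in VC and at 329.995, 328.2 and 360.009 in control. Fold changes were 0.017 for Ccnd1 and -0.003 for Cdk4. Of the exon bases of Ccnd1 and Cdk4, 23.4% and 19.7% overlap a gene on the opposite strand.

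The cyclin E arm held the largest negative difference of the set. Ccne1, cyclin E1, was at 46.4, 44.1 and 42.4 in VC and at 49.2, 46.2 and 52.7 in control, so that the highest VC value just passed the lowest control value. Its fold change was -0.15 (SE 0.059, 95% interval -0.29 to -0.013, limma adjusted p = 0.259), or -10.3% between the means, and it ran from -0.20 to -0.11 when any 1 library was left out. When library totals were made equal it was -0.082. Ccne2, cyclin E2, was at 33.0, 30.2 and 31.2 in VC and at 32.2, 34.0 and 29.2 in control, with a fold change of -0.014. The ratio of Ccne1 to Ccne2 levels was 1.41 ± 0.050 in VC and 1.57 ± 0.23 in control (SD, n = 3 each), within the spread of the controls.

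Cdk2, the kinase that cyclin E activates, had a difference of the opposite sign. It was at 32.5, 33.9 and 35.0 in VC and at 31.7, 32.3 and 30.7 in control, with every VC value above every control value. Its fold change was 0.095 (SE 0.044, 95% interval -0.010 to 0.20, limma adjusted p = 0.329). E2f1, the transcription factor of this set, was at 30.253, 31.883 and 30.953 in VC and at 32.098, 31.945 and 32.842 in control, without overlap by a narrow margin, and its fold change was -0.056 (SE 0.040, limma adjusted p = 0.509). The median of the 6 genes was -0.009, with 4 below 0 and 2 above.

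Another 82 genes of the same pathway, on 83 rows since Chtf8 has 2 identifiers, held no gene past the threshold either. Of these rows 81 passed the filter and 0 passed limma's adjusted threshold, while 3 higher and 6 lower genes had an unadjusted p under 0.05. Of all genes tested 9.05% were higher and 8.2% lower at that unadjusted p. The median fold change of the 81 rows was -0.010, and groups did not overlap in 23 of 81, or 28.4%, against 25.6% of all genes tested. Cdkn1a, which encodes the cyclin-dependent kinase inhibitor p21, came nearest to the threshold. It was at 33.9, 36.5 and 34.8 in VC and at 27.9, 29.2 and 28.9 in control, a difference of 22.3% between the means and without overlap. The fold change was 0.28 (SE 0.044, 95% interval 0.18 to 0.39), with a limma adjusted p of 0.0539. Cdkn1a was called higher with libraries scaled to equal totals (0.35, limma adjusted p = 0.0294) and with estimated library weights (0.28, limma adjusted p = 0.0342), and in no other alternative run, where limma's adjusted p lay between 0.0576 and 0.219.

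Among the other genes nearest to the threshold in their class, Ccna2, cyclin A2, which acts in S phase and G2, was at 136.6, 132.5 and 132.5 in VC and at 143.0, 144.1 and 147.0 in control (fold change -0.11, limma adjusted p = 0.151). Dut, the enzyme that keeps uracil out of DNA, was at 77.3, 80.5 and 77.4 in VC and at 88.4, 85.1 and 97.6 in control (fold change -0.20, limma adjusted p = 0.146). Shmt1, a folate enzyme that serves thymidylate synthesis, was at 75.9, 72.2 and 73.4 in VC and at 69.6, 66.9 and 67.2 in control (fold change 0.12, limma adjusted p = 0.178). In all 3 the groups did not overlap, as was so for 25.6% of all genes tested. These genes were chosen for a small p, which itself favours such separation. With equal totals the fold changes were -0.040 for Ccna2, -0.13 for Dut and 0.19 for Shmt1.

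For the fork, Rpa3, a partner of Rpa2, had a fold change of -0.12 and Chtf18, of an alternative clamp loader, one of 0.11, with limma adjusted p of 0.250 and 0.260. In licensing and origin firing, the kinase Cdc7 had a fold change of 0.12 and the firing factor Ticrr one of 0.15, with limma adjusted p of 0.323 and 0.350; the Ticrr value was 0.097 without control replicate 3. The groups of Cdc7 overlapped, while those of Rpa3, Chtf18 and Ticrr did not. With equal totals the fold changes were -0.045 for Rpa3, 0.18 for Chtf18, 0.19 for Cdc7 and 0.22 for Ticrr. Of the 12 other licensing and firing genes, 7 had a fold change above 0 and 5 one below 0, from -0.15 to 0.15.

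**Figure D4:**
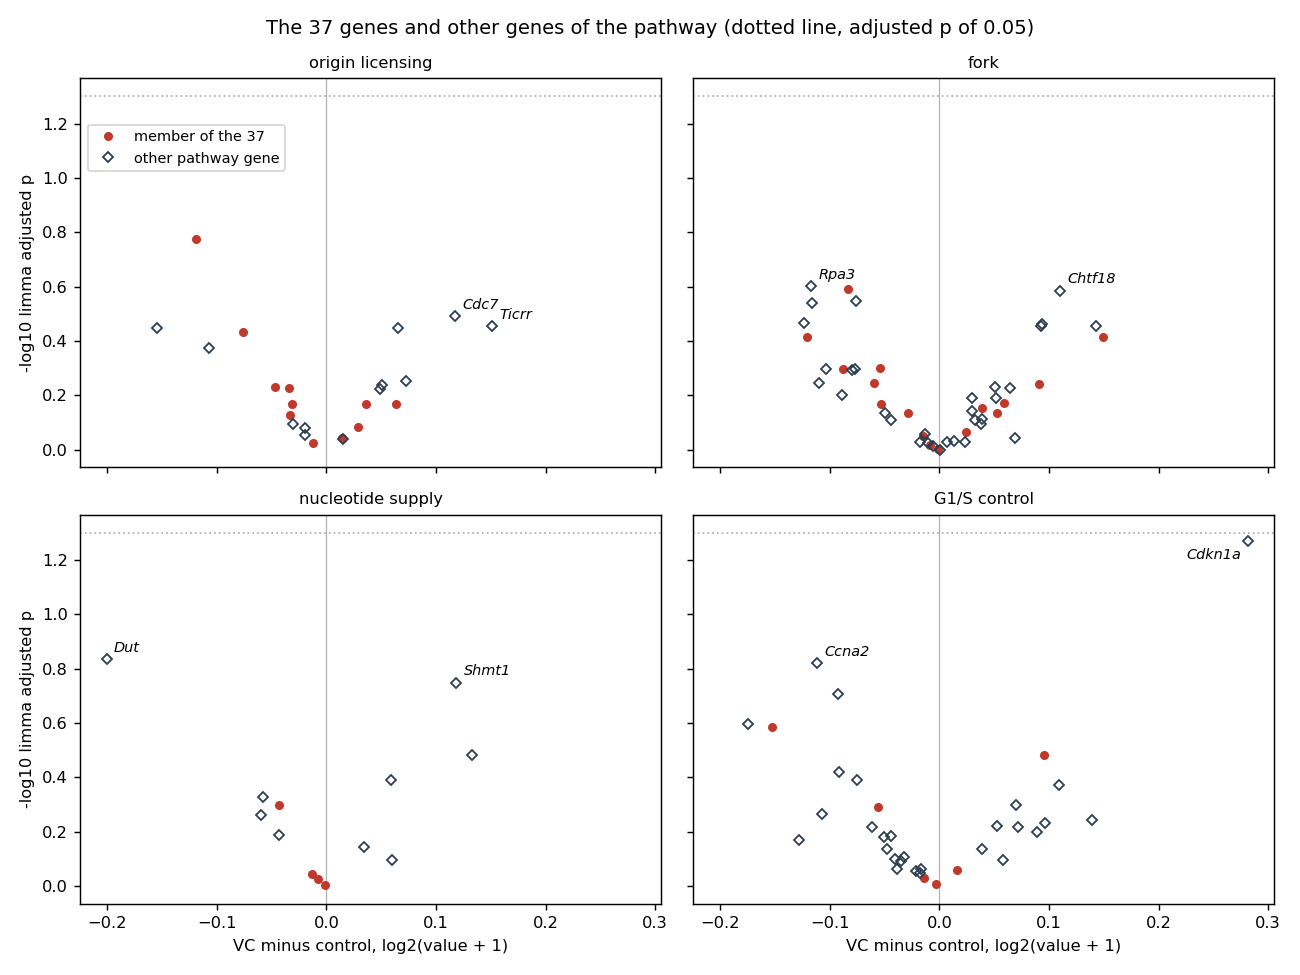
Fold change (x axis, VC minus control in log2(level + 1)) against -log10 of limma's adjusted p (y axis) for the 37 genes (filled circles) and 81 rows of other pathway genes (open diamonds), by class; the 2 diamonds nearest to the threshold in each class are named. No point lies above the dotted line at an adjusted p of 0.05, and Cdkn1a lies just under it at 0.0539.

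The direction of such small differences depended on the scaling between libraries. On the deposited scale 25 of the 37 genes lay below 0 and 12 above. Of all genes tested 46.3% lay below 0, as did 51.8% of the 6162 genes in the same range of mean level. The median fold change of the 6162 genes was -0.004 and that of the 37 genes -0.013. With libraries scaled to equal totals 6 lay below 0 and 31 above, while the median of all genes moved to 0.078. Counted against the median of all genes, 25 of the 37 genes lay below it on both scales. Scaling to equal totals shifts every gene by nearly the same amount, so this count could hardly differ between the scales and is no separate result. The median of the 37 genes minus that of all genes was -0.025 on the deposited scale, -0.020 with equal totals, and between -0.040 and -0.009 when any 1 library was left out. In each of these fits 0 of the 37 genes passed limma's adjusted threshold.

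**Figure D5:**
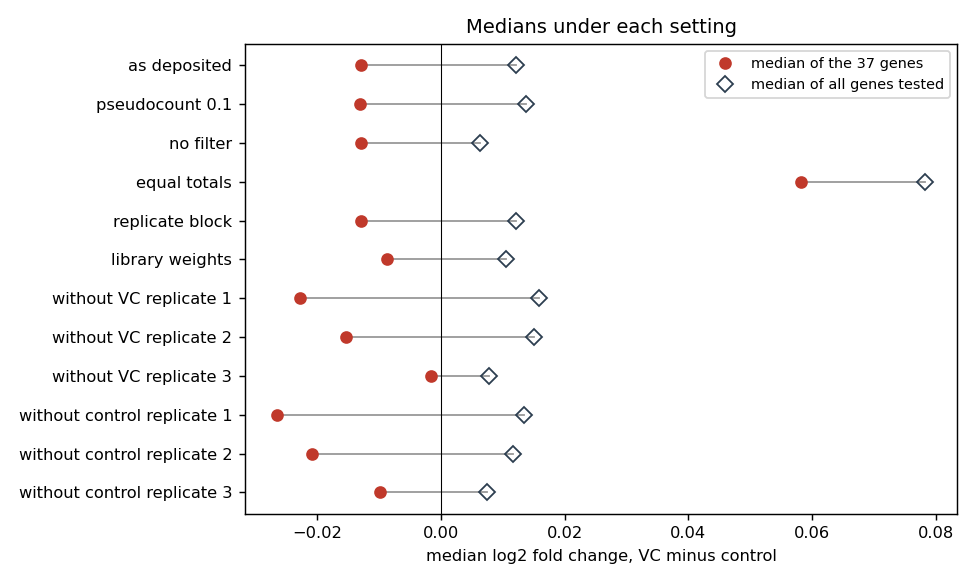
Median log2 fold change (VC minus control) of the 37 genes (filled circles) and of all genes tested (open diamonds) as deposited and under each alternative. The circle lies left of the diamond in every line, by 0.009 to 0.040, and both move right together with equal totals, to 0.058 and 0.078. The lines are not independent, since the replicate block leaves every fold change as deposited and equal totals shift all genes nearly alike.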

How the data were processed

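RNA sequencing of 3 VC and 3 control TM4 libraries was analysed from 1 deposited table. HISAT2 and mouse build GRCm39 are named in the submitters' processing notes; counter, annotation and strand setting were not given in the sources. As deposited, each value is a signal scaled by the authors, per gene length and library with, by the table's name, a TMM factor. Symbols and exon lengths came from GENCODE M21 (52081 and 52133 of 55414 identifiers matched). Multiplying values by exon length gave whole multiples of 1 read for 98.74% to 98.89% of values, within 0.1 read and up to 1000 reads. Recovered reads served for depth, read numbers per gene, counting error and the simulated data, and not for the comparison of groups.

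Genes reaching a value of 1 in 3 or more libraries were compared on log2(value + 1) in limma 3.58.1 (R 4.3.3), with an intensity trend, no covariate, two-sided, Benjamini-Hochberg adjusted over 13972 genes, threshold 0.05. The procedure was tested on simulated data. Members and lists were chosen with earlier results of these data known. All 37 members are named, and of other pathway genes the 2 with the smallest unadjusted p in each class. Alternatives changed the pseudocount, filter, scaling, block, weights and libraries. Python 3.11.15, pandas 2.3.3 and matplotlib 3.10.9 made tables and figures.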

Additional observations from a re-analysis of the deposited data

How the results depend on the processing

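In the 407 alternative fits of single genes, 0 of the 37 genes passed limma's adjusted threshold, with adjusted p from 0.139 upward; in 58 of them the sign of the fold change turned. The number of all genes called was 96, and it was 30 without a filter, 217 with equal totals, 254 with library weights, 0 with the replicate block, 82 without control replicate 3 and 0 or 1 without any other library. The number of other pathway genes called was 0, and 1 (Cdkn1a) with equal totals and with library weights. The labels do not say whether replicate numbers pair the libraries. The deviations of same-numbered VC and control libraries correlated at -0.019, -0.011 and 0.005 across 13972 genes, which shows no pairing but cannot exclude that they were made together. With equal totals, which moved the median of all genes to 0.078, the median of the 37 genes was 0.058, that of licensing genes 0.041, fork genes 0.060, nucleotide supply 0.061 and G1/S control 0.063. The fork median was 0.0002 with library weights and -0.040 to 0.0034 with 1 library left out. The G1/S median was -0.029 with library weights and -0.032 to 0.0044 with 1 library left out, when the nucleotide supply median was -0.027 to 0.007. With equal totals these fold changes turned positive: Mcm3 0.038, Mcm5 0.041, Mcm6 0.026, Cdc6 0.038, Gmnn 0.059, Cdc45 0.011, Pcna 0.057, Rfc3 0.069, Pold1 0.062, Prim1 0.042, Rpa2 0.018, Uhrf1 0.018, Rrm1 0.029, Rrm2 0.071, Tyms 0.058, Tk1 0.064, Ccne2 0.056, Cdk4 0.069 and E2f1 0.014. With library weights Mcm4 became -0.0055, Gmnn 0.0081, Rfc3 0.019, Pold1 0.013, Tyms 0.0004, Ccnd1 -0.0089 and Cdk4 0.024. With 1 library left out, the sign of 16 genes was not kept: Mcm4 ran from -0.0098 to 0.049, Cdt1 from -0.029 to 0.061, Gmnn from -0.068 to 0.043, Orc1 from -0.0056 to 0.10, Gins2 from -0.0033 to 0.078 and Pcna from -0.046 to 0.0054. Rfc3 ran from -0.036 to 0.037, Pola1 from -0.018 to 0.092, Pold1 from -0.051 to 0.030, Rpa2 from -0.099 to 0.0014, Rrm2 from -0.023 to 0.022 and Tyms from -0.031 to 0.0095. Tk1 ran from -0.031 to 0.0099, Ccne2 from -0.073 to 0.035, Ccnd1 from -0.020 to 0.045 and Cdk4 from -0.026 to 0.040. The cause of these moves was not tested. Counting error at the lowest read number was smaller than the coefficient of variation of the VC libraries in 26 of the 37 genes and of the control libraries in 32.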
